A study of Saccharomyces cerevisiae with 5 samples.

Results

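Cells make purine and pyrimidine nucleotides and their deoxy forms through a set of enzymes that is encoded, in budding yeast, by single genes for some steps and by duplicate genes for others. The RNA levels of 39 such genes were compared on 5 arrays. The set held 11 genes of the de novo purine route, 3 IMP dehydrogenase genes, 9 genes of the pyrimidine route, 4 ribonucleotide reductase genes, 5 PRPP synthetase genes, and 7 genes of salvage and of nucleotide kinases. They were chosen by gene name, not by a measured value, and all 39 names were found among the 6256 genes on each array, each with 1 probe printed as 7 spots.

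Total RNA of Saccharomyces cerevisiae was labelled with the green dye Cy3 and hybridised together with genomic DNA labelled with the red dye Cy5, so that RNA could be expressed per gene copy. The labels give the strain of both channels as Sigma 1287b, L5366 (the paper writes Sigma1278b), with no further genotype, and the cells were taken in mid-log growth at 30 °C in a rich medium to which, per the study's methods, adenine and uracil were added. All 5 arrays belong to 1 group, so the design implies comparisons between genes and none between conditions. The labels number 5 RNA samples and do not say that each came from its own culture, and the study's methods describe fewer biological replicates than there are arrays, so an SD or a p over arrays may cover technical spread only. Dyes were never swapped, and any dye effect therefore remains in every level.

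Purine synthesis starts when ribose 5-phosphate is activated to phosphoribosyl pyrophosphate (PRPP), on which the purine ring is built step by step up to inosine monophosphate (IMP). IMP is then turned into AMP or, through IMP dehydrogenase and GMP synthetase, into GMP. The pyrimidine ring is built first, from carbamoyl phosphate and aspartate, and only then joined to PRPP, and the resulting UMP gives UTP and CTP. Ribonucleotide reductase turns ribonucleoside diphosphates into the deoxy forms used for DNA, and salvage enzymes rebuild nucleotides from free bases.

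A level is given here as log2 of the RNA signal over the genomic DNA signal, relative to the median gene of the array, so 0 is the median gene and 1 is a doubling. Division by genomic DNA, which carries each gene in a fixed proportion, is the step that allows different probes to be set side by side. It gives RNA per gene copy at the probe, not molecules per cell. Values are mean ± SD over 5 arrays. The exact two-sided permutation test used for single differences flips signs over arrays and cannot give a p below 0.0625 with 5 arrays, so no difference between genes could pass 0.05. Array-to-array agreement was high, with Pearson R between 0.992 and 0.998 across genes, which are not independent replicates. Median intensities were 1430 to 2053 for Cy3 and 11405 to 13001 for Cy5, and all 39 genes were well above background in both channels on all 5 arrays, with at least 5 spots used per array and no saturated spot.

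The nucleotide genes lay mostly in the upper part of the range of RNA levels. Of the 39 genes, 31 (79.5%) were above the median gene on all 5 arrays, against 47.2% of all genes on the array, and 7 (17.9%) were below it on all 5, against 47.5% of all genes. ADE1 was on neither side throughout. Of the 38 genes with a side, 14 changed it under at least 1 of 15 alternatives, 11 of them under loess, 5 with the processed signals of the scanner software and 3 with Cy3 alone. The same count was not made over all genes, so it cannot be called particular to this set. Among the top 25% of genes by mean level were 27 of the 39 (69.2%), and 5 were among the bottom 25%. The median level of the set was 1.91 ± 0.03, and it was 1.89 to 1.95 on single arrays (exact permutation p = 0.0625). On every array it was the level of PRS5, the gene with the smallest SD of the 39, so its SD is that of 1 gene. This median was positive under all 17 alternative settings tried, from 0.14 under loess, where a curve of ratio on brightness was fitted within each array and taken out, to 2.37 when Cy3 was used with no division. The genes nevertheless covered 7.49 log2 units, or 179-fold, from RNR3 to URA1. The SD over arrays had a median of 0.062 for the set and 0.080 for all genes, and 26 of the 39 were below the latter.

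**Figure D1:**
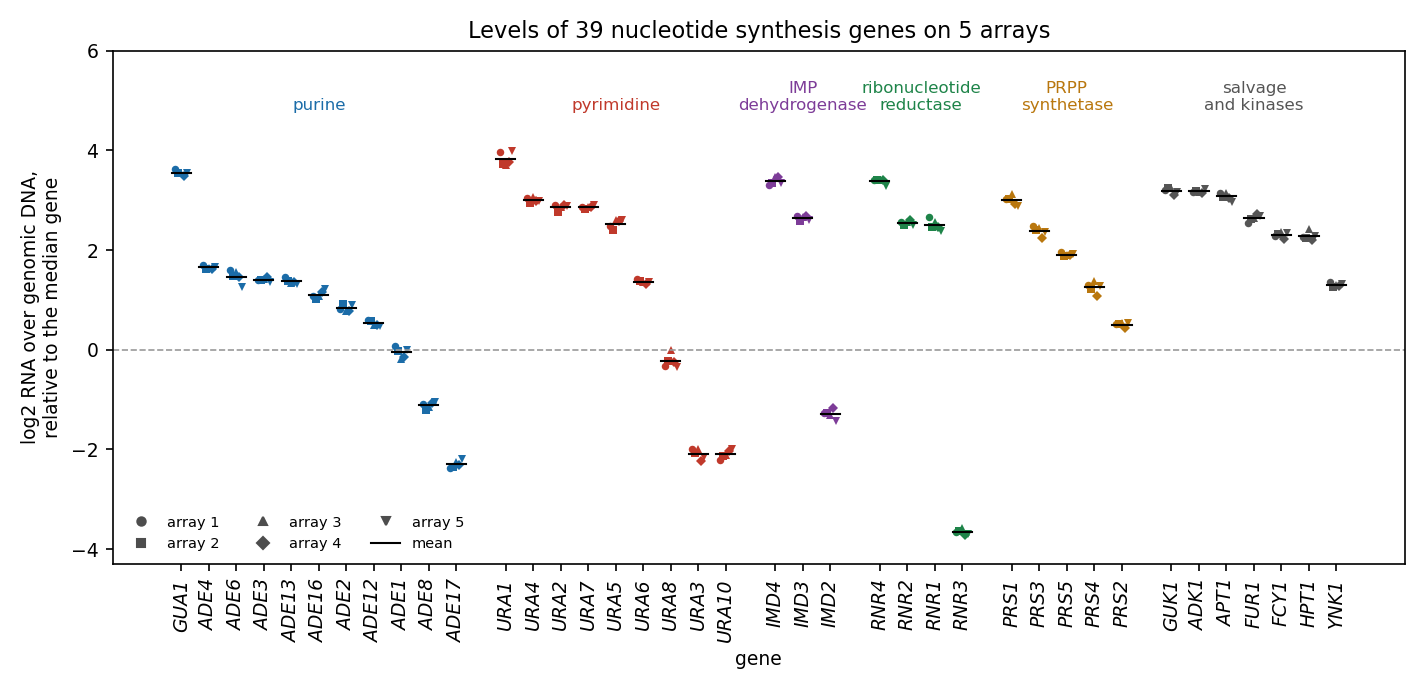
Level of each of the 39 genes on each of the 5 arrays (y axis, log2 RNA over genomic DNA relative to the median gene, dashed at 0), grouped by class along the x axis, with each symbol 1 array and each bar the mean. URA1 is highest at 3.83 and RNR3 lowest at -3.66, though URA1 falls to -0.12 under loess.

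All 5 PRPP synthetase genes were above the median gene on every array, except that under loess PRS1, PRS2 and PRS5 and with processed signals PRS2 fell below it, and they differed in level. The PRS genes encode subunits of the enzyme that makes PRPP for both routes, for salvage, and for histidine and tryptophan synthesis. PRS1 was the highest, at 3.03, 3.02, 3.12, 2.93 and 2.89 on arrays 1 to 5. The level of PRS3 was 2.48, 2.41, 2.45, 2.25 and 2.37. That of PRS5 was 1.95, 1.89, 1.89, 1.90 and 1.91. These 3 genes did not overlap with one another on any array or between arrays. PRS4 followed at 1.29, 1.22, 1.38, 1.09 and 1.27, and its range of 1.09 to 1.38 was the widest of the 5. PRS2, the lowest, was at 0.51, 0.51, 0.53, 0.43 and 0.53, with array 4 below the other 4 arrays. The whole family thus spanned 2.50 ± 0.08 on the log2 scale between PRS1 and PRS2, a 5.64-fold difference in the ratio. The difference was 0.61 ± 0.07 between PRS1 and PRS3, 0.48 ± 0.08 between PRS3 and PRS5, 0.66 ± 0.11 between PRS5 and PRS4 and 0.75 ± 0.07 between PRS4 and PRS2, each of 1 sign on all 5 arrays, although PRS1 over PRS3 and PRS5 over PRS4 turned under loess (-0.73 and -0.34) and with the scanner software's processed signals (-0.26 and -0.26). The position of the family above the median gene also depended on this choice, since PRS1, PRS2 and PRS5 went to -0.13, -0.42 and -0.10 under loess and PRS2 to -0.23 with processed signals.

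The de novo purine genes formed a graded series. Of 11 genes, 8 were above the median gene on all 5 arrays and 2, ADE8 and ADE17, below, and of the 8, ADE3 and ADE6 changed side under loess and with processed signals and ADE12 from Cy3 alone. ADE4, whose product is the amidotransferase that commits PRPP to purine synthesis, was at 1.65 ± 0.03 (n = 5), with 1.63 as its lowest array. ADE5,7, which encodes the enzyme of the next step and of a later one and lies outside the 39, was at 1.96 ± 0.07. ADE8, the glycinamide ribotide transformylase of the step after, was at -1.11 ± 0.06, below the median gene on every array. ADE6, which encodes the next amidotransferase of the ring, was back above it, at 1.60, 1.48, 1.55, 1.45 and 1.26 on arrays 1 to 5, with array 5 the lowest and the SD (0.13) among the 3 largest of the set. Its level was -0.68 under loess and -0.19 with processed signals.

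ADE2 and ADE1, which act later in building the ring, were lower than ADE4 and ADE6, although under loess and with processed signals ADE2 (1.02 and 1.06) was above ADE4 (0.64 and 0.88) and ADE6, and ADE1 (0.04 and 0.02) was above ADE6. ADE2, the carboxylase whose loss turns colonies red, was at 0.83, 0.91, 0.78, 0.79 and 0.90. ADE1, the SAICAR synthetase next in line, was at 0.08, -0.03, -0.18, -0.14 and 0.004, on both sides of the median gene. The difference of ADE2 over ADE1 was positive on every array, since the lowest ADE2 value exceeded the highest of ADE1. ADE13, the lyase that acts in ring building and again in AMP synthesis, was at 1.37 ± 0.05. ADE12, the adenylosuccinate synthetase of the AMP branch, was at 0.53 ± 0.05, or -0.15 from Cy3 alone, where it fell below the median gene. ADE3, which makes the one-carbon folate units that the ring takes up, was at 1.40 ± 0.04, but at -1.04 under loess and -0.56 with processed signals.

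ADE16 and ADE17 encode isozymes that both close the purine ring to IMP, and their RNA levels were far apart. ADE16 was at 1.08, 1.02, 1.07, 1.16 and 1.22 on arrays 1 to 5. ADE17 was at -2.37, -2.36, -2.25, -2.31 and -2.19 and was the second-lowest gene of the set. This rank was not kept under every alternative. URA10 was lower from Cy3 alone (-2.70 against -2.03), and IMD2 and URA3 were lower with normexp background correction, under loess and with processed signals. The ranges did not overlap, and the difference was 3.40 ± 0.06, or 10.6-fold, and 3.31 to 3.46 on single arrays. It stayed positive under all 17 alternatives, with 1.04 under loess as the smallest.

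Of the genes of the GMP branch, GUA1, IMD4 and IMD3 were high and IMD2 was below the median gene, though not from Cy3 alone. GUA1, the GMP synthetase, was at 3.63, 3.55, 3.54, 3.48 and 3.54, the second-highest gene of the set, in the 95.4th percentile of all genes. IMD4 was at 3.31, 3.34, 3.47, 3.47 and 3.34, with arrays 3 and 4 above the others. IMD3 was at 2.68, 2.58, 2.65, 2.68 and 2.60, below IMD4 on every array. IMP dehydrogenase, which these IMD genes encode, catalyses the rate-limiting step of guanine nucleotide synthesis. IMD2, known in laboratory strains for induction when guanine nucleotides run low, was at -1.27, -1.27, -1.31, -1.17 and -1.42, below the median gene on every array. IMD3 exceeded IMD2 by 3.93 ± 0.07 (15.2-fold) and IMD4 exceeded it by 4.67 ± 0.09 (25.5-fold). The difference of IMD4 over IMD3 was 0.75 ± 0.07 and kept its sign on 5 arrays, but turned to -0.23 under loess and to -0.23 with processed signals.

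IMD2 also had a high genomic DNA signal. Its Cy5 intensity averaged 37365, the highest of the 39 genes and 1.63 log2 units above the median gene (percentile 98.5), while Cy3 averaged 2218. By Cy3 alone, IMD2 was above the median gene, at 0.41, and the differences from IMD3 and IMD4 shrank to 2.57 and 3.65 without changing sign. IMD1, a neighbour in sequence that the reference strain carries as a nonfunctional homologue, is not a member and was at -1.63 ± 0.12, with a Cy5 intensity 1.15 log2 units below the median gene (percentile 2.23). A probe may also bind the transcript or the gene of a close paralogue, here and in the other duplicate families, and the part of this in the levels was not tested.

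**Figure D2:**
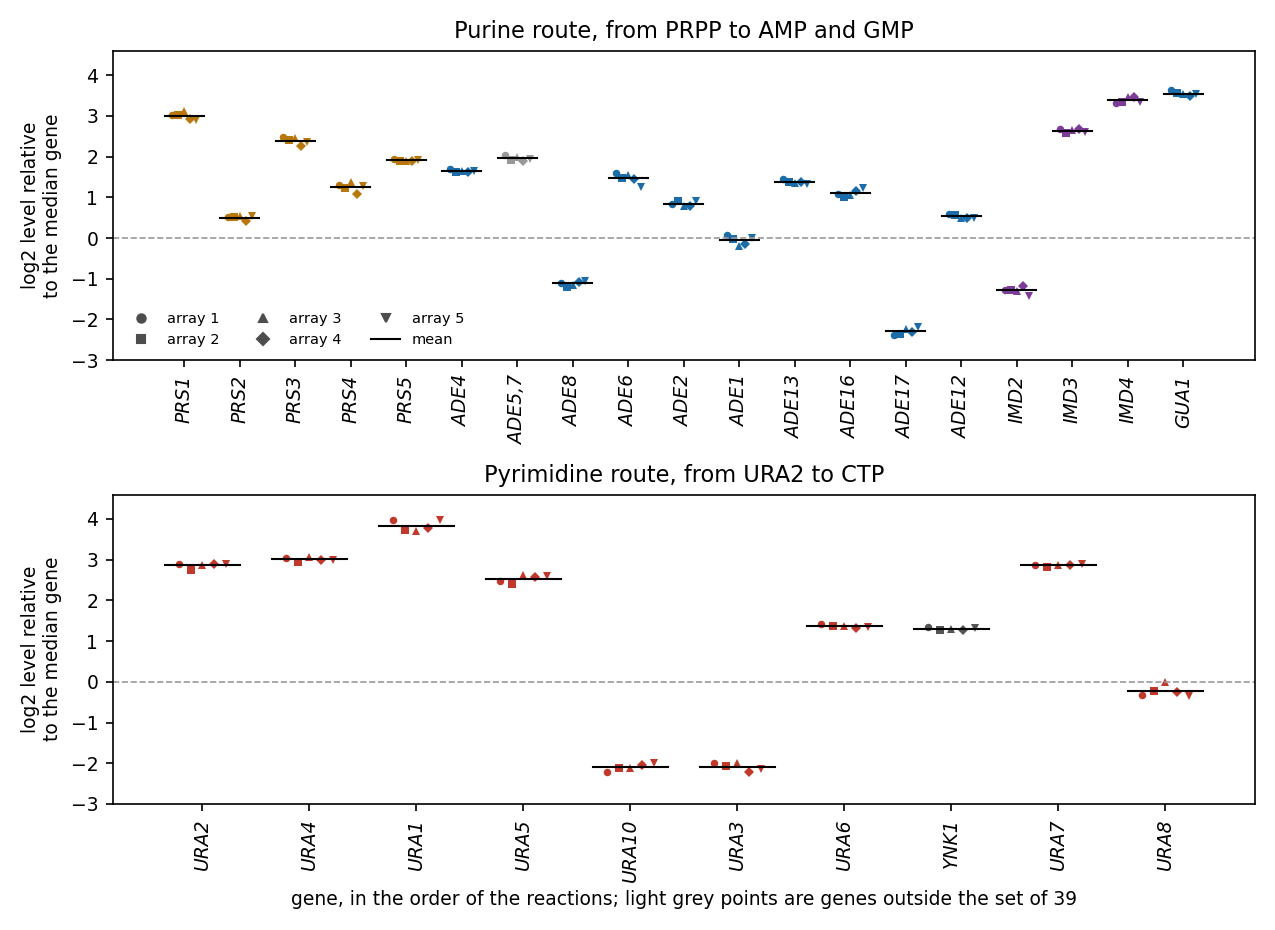
Level on each array (y axis, log2 relative to the median gene) of the genes of the purine route (upper panel) and the pyrimidine route (lower panel) in the order of their reactions, with each symbol 1 array and each bar the mean. Neither route runs at 1 level, from -2.30 for ADE17 to 3.55 for GUA1 and from -2.10 for URA10 to 3.83 for URA1; under loess URA1 (-0.12) and URA10 (0.74) change side.

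The pyrimidine genes divided into 5 at a high level, URA6 in between, and 3 below the median gene (URA8, URA3 and URA10), a division that was not kept under loess, where URA1, URA2, URA5 and URA6 were below the median gene and URA10 above it. It was not kept with processed signals either, where URA5 (-0.20) and URA6 (-0.16) were below the median gene. From Cy3 alone URA8 was above it (0.22). URA2, whose product makes carbamoyl phosphate for this route and joins it to aspartate, was at 2.90, 2.75, 2.87, 2.90 and 2.88 on arrays 1 to 5, with array 2 the lowest. URA4, the dihydroorotase, was at 3.01 ± 0.05. URA1, the dihydroorotate dehydrogenase, was at 3.97, 3.72, 3.70, 3.78 and 3.98, the highest gene of the set and rank 242 of 6256. Its values on arrays 1 and 5 were above those on the other 3, and its SD of 0.13 was also among the 3 largest. URA1 and URA2 were above the median gene on every array and under the other alternatives, but at -0.12 and -0.02 under loess.

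Orotate phosphoribosyltransferase, which joins the ring to PRPP, is encoded by URA5 and by its duplicate URA10. URA5 was at 2.48, 2.40, 2.61, 2.57 and 2.60, but at -0.76 under loess and -0.20 with processed signals. URA10 was at -2.22, -2.13, -2.12, -2.04 and -1.99, and the 2 ranges were far apart. The difference was 4.63 ± 0.09 (24.8-fold), but it was the pair most exposed to the processing, with -1.49 under loess, -0.18 with processed signals and 6.34 from Cy3 alone. The Cy5 signal of the pair was unequal, 1.03 log2 units above the median gene for URA5 and 0.64 below it for URA10. URA3, the decarboxylase that makes UMP and a common selection marker, was at -1.99, -2.08, -1.99, -2.23 and -2.15. It was as low as URA10 here, with a difference of 0.01 ± 0.18. This did not hold under loess (-1.28 for URA3 against 0.74), with processed signals (-1.47 against -0.02) or from Cy3 alone (-1.58 against -2.70). The labels do not give the genotype at URA3. URA3 was below the median gene on every array and under every alternative, and its genomic DNA signal was not low, at percentile 80.8.

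Beyond UMP, URA7 was again above the median gene and URA8 was not. URA6, the uridylate kinase, was at 1.37 ± 0.04, although at -0.48 under loess and -0.16 with processed signals. CTP synthetase has isozymes encoded by URA7 and URA8. URA7 was at 2.87, 2.81, 2.86, 2.86 and 2.90 and varied little, with an SD of 0.03. URA8 was at -0.33, -0.22, -0.004, -0.24 and -0.34, the largest SD of the set, with array 3 close to the median gene and the other 4 arrays below it. URA8 was above the median gene only from Cy3 alone (0.22). The difference of URA7 over URA8 was 3.09 ± 0.15 (8.51-fold) and was positive on all 5 arrays and under all 17 alternatives, down to 1.09 under loess.

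Among the ribonucleotide reductase genes, 3 were high, with RNR2 just below the median gene under loess, and RNR3 was the lowest gene of the whole set, with IMD2 lower under loess (-2.73 against -2.02) and with processed signals (-2.41 against -2.36). RNR1, the usual large subunit, was at 2.66, 2.46, 2.57, 2.46 and 2.39 on arrays 1 to 5, with array 1 the highest. RNR3, the alternative large subunit known for induction after DNA damage, was at -3.65, -3.63, -3.58, -3.72 and -3.71, in percentile 5.11 of all genes. No array brought the 2 large subunits close, and the difference was 6.16 ± 0.09, or 71.7-fold, the largest of the 18 pairs of paralogues compared. It was positive under all 17 alternatives, with 3.11 under loess as the smallest.

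RNR2 and RNR4 encode the proteins that form the small subunit together. RNR2 was at 2.57, 2.50, 2.57, 2.60 and 2.49. RNR4 was at 3.41, 3.40, 3.40, 3.41 and 3.29, with array 5 below the other 4, and above RNR2 on every array. RNR4 exceeded RNR2 by 0.84 ± 0.04 (1.79-fold), and this difference kept its sign under all 17 alternatives, although RNR2 itself came to -0.08 under loess. RNR2 and RNR1 were not separated, since the difference of 0.04 ± 0.09 was positive on 4 of 5 arrays. Other settings set them apart in opposite directions. RNR2 was higher from Cy3 alone (3.13 against 2.28) and lower under loess (-0.08 against 1.09) and with processed signals (0.41 against 1.35).

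The lowest members were also the dimmest in Cy3, and their intensities are given for that reason. The Cy3 intensity of RNR3 after background subtraction was 277, 184, 187, 249 and 286 on arrays 1 to 5. ADE17 gave 452, 321, 334, 372 and 470. URA10 gave 301, 206, 199, 264 and 364. The 153 negative control spots, treated in the same way, averaged a Cy3 intensity of 40.0, 22.6, 26.1, 83.0 and 87.2 on these arrays, below each of the 3 genes on every array and higher in the second scan session (arrays 4 and 5). When the mean of these control spots was subtracted in place of the local background, RNR3 went from -3.66 to -3.96, ADE17 from -2.30 to -2.45 and URA10 from -2.10 to -2.38.

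**Figure D3:**
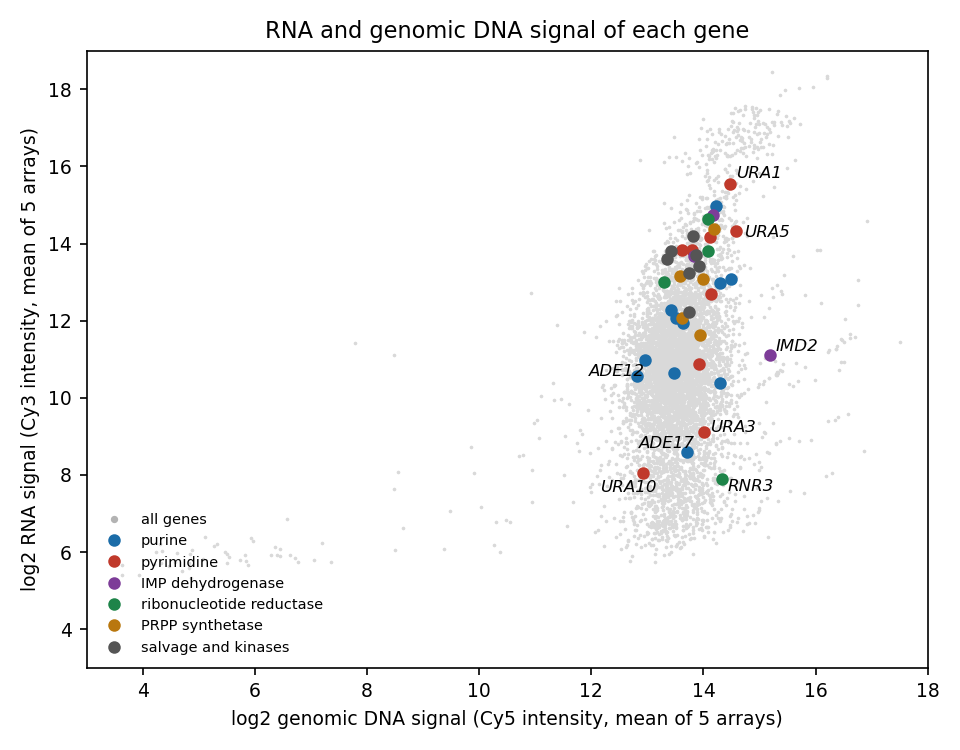
RNA signal (y axis, log2 Cy3 intensity) against genomic DNA signal (x axis, log2 Cy5 intensity), each the mean of 5 arrays; grey dots are all genes and coloured points the 39 genes by class. IMD2 stands apart on the x axis with a Cy5 intensity of 37365, and RNR3 has the lowest Cy3 intensity of the 39, 237.

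The genomic DNA signal differed among the members less than the RNA signal did. Cy5 relative to the median gene ran from -0.75 for ADE12 to 1.63 for IMD2, with URA5 next to IMD2 at 1.03. Among all genes on the array these were percentiles 6.51, 98.5 and 95.7, so the members covered most of the range of Cy5. URA1, the gene with the highest level, had a Cy3 intensity of 61564, 37489, 30724, 43325 and 65694 on arrays 1 to 5 and a Cy5 intensity of 27444, 21176, 17452, 23018 and 24870. Both channels of URA1 were lowest on array 3.

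All 7 salvage and kinase genes were above the median gene on every array and under all alternatives tried. GUK1, the guanylate kinase, was at 3.19 ± 0.06, and ADK1, the adenylate kinase, at 3.18 ± 0.03. APT1, which makes AMP from adenine and PRPP, was at 3.08 ± 0.07. The kinases GUK1 and ADK1 were not separated (difference 0.02 ± 0.06). FUR1, which makes UMP from uracil and PRPP, was at 2.64 ± 0.06, and FCY1, the cytosine deaminase that supplies uracil, at 2.30 ± 0.05. HPT1, which salvages hypoxanthine and guanine, was at 2.28 ± 0.08, not separated from FCY1 (0.02 ± 0.06). YNK1, the nucleoside diphosphate kinase that makes triphosphates of both routes, was the lowest of the class at 1.30 ± 0.04. The class median of 2.64 ± 0.06 is the level of FUR1 on every array, and the class was not among those compared in pairs.

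Duplicate families were compared pair by pair. All 18 pairs differed in 1 direction on 5 of 5 arrays, each with the smallest p that 5 arrays allow (exact permutation p = 0.0625, and 0.0625 after Benjamini-Hochberg adjustment over 18 pairs). In ADE16 and ADE17, URA5 and URA10, URA7 and URA8, and RNR1 and RNR3, 1 gene was 8.51- to 71.7-fold above its partner, and IMD3 and IMD4 stood as far above IMD2, whereas RNR4 and RNR2, IMD4 and IMD3, and the PRS genes other than PRS2 were within 3.36-fold of one another. Of the 18 pairs, 12 kept their direction under all 17 alternatives. The 6 that did not were IMD4 over IMD3, URA5 over URA10, PRS1 over PRS3, PRS1 over PRS4, PRS1 over PRS5 and PRS5 over PRS4, all of which turned under loess, and IMD4 over IMD3, URA5 over URA10, PRS1 over PRS3 and PRS5 over PRS4 also with processed signals.

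**Figure D4:**
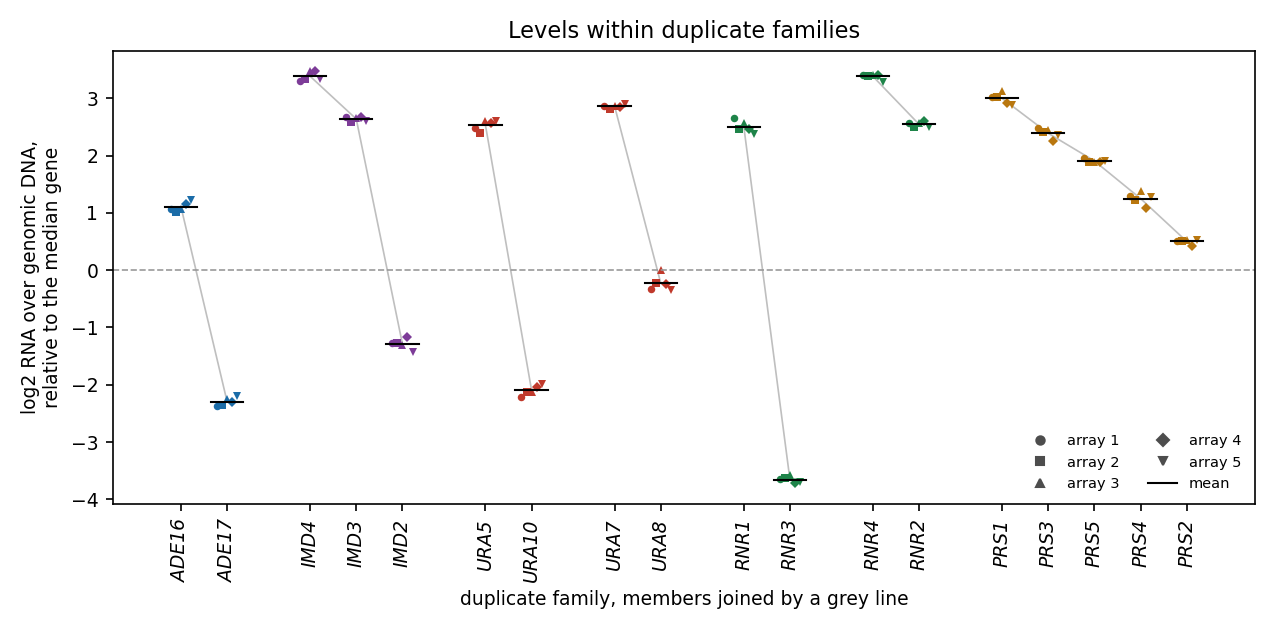
Level on each array (y axis, log2 RNA over genomic DNA relative to the median gene) of the members of each duplicate family along the x axis, with each symbol 1 array, each bar the mean and a grey line joining the family. RNR1 and RNR3 are 6.16 log2 units apart and IMD4 and IMD3 0.75; the order of IMD4 and IMD3, of URA5 and URA10 and among PRS1, PRS3, PRS4 and PRS5 turns in part under loess or processed signals.

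**Figure D5:**
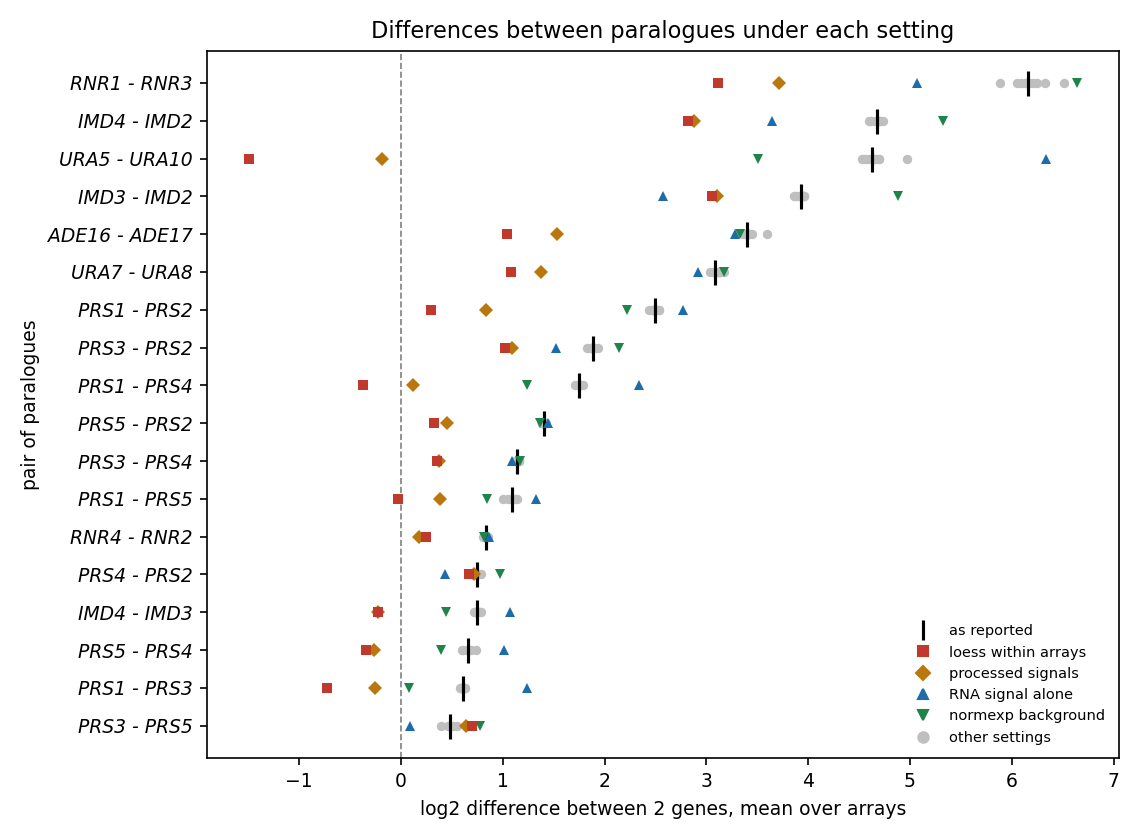
Mean difference of each of the 18 pairs (x axis, log2 level of the first gene minus the second, dashed at 0) as reported and under each alternative setting, with the pairs along the y axis. Red squares (loess) and orange diamonds (processed signals) lie left of the reported value for most pairs, and URA5 minus URA10 runs from -1.49 to 6.34.

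Between the classes, the purine genes had the lowest median and the IMP dehydrogenase, pyrimidine and ribonucleotide reductase genes were close together, an order that alternatives changed. The class medians were 1.11 ± 0.08 for purine, 2.53 ± 0.09 for pyrimidine, 2.64 ± 0.05 for IMP dehydrogenase, 2.53 ± 0.07 for ribonucleotide reductase and 1.91 ± 0.03 for PRPP synthetase genes. In classes with an odd number of genes the median is a single gene: ADE16, URA5, IMD3 and PRS5 in turn. Purine minus pyrimidine was -1.43 ± 0.07, purine minus IMP dehydrogenase -1.53 ± 0.09, purine minus ribonucleotide reductase -1.42 ± 0.13 and purine minus PRPP synthetase -0.80 ± 0.08, each negative on all 5 arrays but positive under loess. PRPP synthetase genes were lower than 3 classes, with pyrimidine minus PRPP synthetase at 0.63 ± 0.10, IMP dehydrogenase minus PRPP synthetase at 0.73 ± 0.04 and ribonucleotide reductase minus PRPP synthetase at 0.62 ± 0.06, all positive on 5 arrays but negative when class means replaced class medians. The remaining differences were -0.11 ± 0.09 for pyrimidine minus IMP dehydrogenase, 0.11 ± 0.04 for IMP dehydrogenase minus ribonucleotide reductase, and 0.01 ± 0.12 for pyrimidine minus ribonucleotide reductase, which was positive on 3 arrays and negative on 2. With normexp background correction, pyrimidine minus IMP dehydrogenase widened to -0.76 and pyrimidine minus PRPP synthetase shrank to 0.09.

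Of the 10 class differences, 9 had 1 sign on all 5 arrays (exact permutation p = 0.0625, adjusted p = 0.0694 over the 10 pairs) and pyrimidine against ribonucleotide reductase did not (p = 0.938, adjusted p = 0.938). Within the scan sessions, purine minus pyrimidine was -1.44 in the first session and -1.40 in the second. None of the 10 kept its sign under every alternative. Purine minus IMP dehydrogenase, ribonucleotide reductase and PRPP synthetase turned only under loess, which sets the typical ratio to 0 at each brightness by construction. Each of the other differences turned under a setting other than loess, so that part of the order depends on the processing. For purine minus pyrimidine (0.28) and IMP dehydrogenase minus ribonucleotide reductase (-0.035) that setting was the processed signals alone. The scanner software had dye-normalized these signals, so they need not be independent of loess, and this was not tested. The spread within each of these classes was larger than any difference between class medians. It ran from 2.50 log2 units among PRPP synthetase genes to 7.04 among ribonucleotide reductase genes.

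Ranked by mean level, the 39 genes gave 38 neighbouring steps, of which 21 had 1 sign on all 5 arrays. At the top, URA1 exceeded GUA1 by 0.28 ± 0.12 and GUA1 exceeded IMD4 by 0.16 ± 0.12, both on 5 arrays. URA1 was below GUA1 under loess (-0.12 against 0.11) and with processed signals (0.27 against 0.29), and GUA1 was below IMD4 with processed signals (0.29 against 0.47). IMD4 and RNR4 were not separated (0.003 ± 0.08), nor were APT1 and URA4 (0.07 ± 0.06) or URA2 and URA7 (0.0004 ± 0.04). At the bottom, RNR3 was 1.36 ± 0.10 below ADE17, and URA10 was 0.20 ± 0.06 above ADE17. From Cy3 alone URA10 was below ADE17 (-2.70 against -2.03).

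The labels gave slides and scan sessions as technical splits. Array 1 was on a slide of its own, arrays 2 and 3 shared a slide, and arrays 4 and 5 shared another. Arrays 1 to 3 were scanned in the first session and arrays 4 and 5 in the second, so the second session and its slide cannot be told apart. No member differed between sessions by limma at a Benjamini-Hochberg adjusted p of 0.05, against 2.64% of all 6256 genes. At an unadjusted p of 0.05, 5 of 39 (12.8%) differed, namely ADE6, ADE16, URA3, URA10 and PRS1, against 20.2% of all genes. The smallest adjusted p of a member by limma was 0.167, for URA3, and the largest difference, second minus first session, was -0.19 on the log2 scale, for ADE6. With the slide as a random block, limma called 11 of the 39 (35.8% of all genes), 8 of them lower in the second session. With only the spots well above background it called 11 (37.5% of the 5920 genes then tested), all 11 lower in the second session. The sets differed: ADE8, ADE16 and PRS4 were called only with the block, and ADE17, IMD2 and RNR1 only with the spot filter. URA10 and ADE17, lower with the filter, were higher in the second session as reported (0.14 and 0.08). In both cases 11 of 39 was a somewhat smaller share than that of all genes, and this difference was not tested.

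Of 40 other genes of nucleotide metabolism, for further enzymes, transporters and regulators, 22 were above the median gene on all 5 arrays and 15 below. Their median was 0.46 ± 0.03, below the 1.91 of the 39 genes, and 0.38 against 0.43 with processed signals, but under loess it was 0.40 and exceeded the 0.14 of the 39. SML1, which encodes an inhibitor of ribonucleotide reductase, was the highest at 3.50 ± 0.06, followed by the adenosine kinase gene ADO1 at 3.16 ± 0.09. The lowest were PHM8, a nucleotidase gene, at -2.66 ± 0.24 with RNA well above background on 3 of 5 arrays, HUG1, another regulator of ribonucleotide reductase, at -2.53 ± 0.14, and FCY22, a homologue of the purine-cytosine permease gene, at -2.18 ± 0.02. HUG1 and RNR3 were both below the median gene under every setting, and SML1 and RNR4 both above it. IMD1 and PHM8 changed side under loess (1.55 and 0.75), and IMD1 also with processed signals (0.79).

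Among 10 pentose phosphate pathway genes, which supply the ribose 5-phosphate that the PRS enzymes use, the median was 2.31 ± 0.02, with 7 genes above the median gene on all 5 arrays and 3 below. The 3 were the minor paralogues GND2 (-2.78 ± 0.09), TKL2 (-3.18 ± 0.10) and SOL4 (-3.45 ± 0.18), of which TKL2 and SOL4 had RNA well above background on 3 of 5 arrays and went to -3.89 and -4.03 with negative controls subtracted, while GND1 was at 3.86 ± 0.13, TKL1 at 4.86 ± 0.20 and SOL3 at 2.72 ± 0.07. GND1 over GND2, TKL1 over TKL2 and SOL3 over SOL4 held under every setting, though under loess TKL2 was at 0.17 and the median of the 10 genes at 0.21.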

How the data were processed

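The 5 arrays measured Cy3-labelled total RNA against Cy5-labelled genomic DNA of 1 strain. Agilent Feature Extraction 10.1.1.1, named in the file headers, had produced the deposited spot intensity files, with spot and background medians, the software's own background-subtracted and dye-normalized signals, and flags. A further file from the authors lists log2(Cy3/Cy5) for each probe, with column medians of -3.01 to -2.57, of which 89.4% to 99.6% matched unsubtracted spot ratios within 0.001 log2, and it served as an alternative only. The array design's genome build: not given in the sources used here.

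Following the study's methods, each channel's spot median was reduced by its local background median and log2(Cy3/Cy5) was taken. The methods then took a median over probes, but the files hold 1 probe per gene, so the mean over its spots was used here, with the median as an alternative. Quantile normalization was run in R 4.3.3 with limma 3.58.1. The median gene was set to 0. Control spots and outlier-flag spots (1.41% to 3.81% of gene spots) were left out. Names came from 2 of the files, matched to the others by probe. No sequences are shown, since none was among the files used here. The number of arrays limits the precision.

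Single differences were tested by exact permutation (two-sided), flipping signs in all 32 patterns that 5 arrays allow, and scan sessions with limma (lmFit and eBayes) over all 6256 genes, with Benjamini-Hochberg adjustment. The members, lists and tests were chosen with earlier results of these data known. Values on every array are given for duplicate families and for the 3 highest, 3 lowest and 3 most variable members. Of the 40 other genes the rule named the 3 highest, of which 1 is not reported here, the 3 lowest and IMD1. The array values of ADE1, ADE2, URA2 and URA3, the intensities, ADE5,7 and the pentose phosphate genes were chosen after seeing values. Alternatives changed the background correction, signal, normalization, divisor, spot filters, summary over spots, source of values, arrays and sessions included, and the slide as a random block.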

Additional observations from a re-analysis of the deposited data

Results flagged for a closer look

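Among 74 sets of 5 array values (the members, the pairs and the class medians), 4 had 1 array whose gap to the next, over the whole range, exceeded Dixon's critical value for 5 values at the 95% level. Chance alone picks out about 1 in 20 of independent sets, but these sets share genes, and some medians repeat the values of 1 member. Purine minus pyrimidine was -1.54 on array 3, against -1.42 to -1.38 on the others. URA2, which carries out the first steps of pyrimidine synthesis, was at 2.75 on array 2 and 2.87 to 2.90 elsewhere. RNR4, a small-subunit gene of ribonucleotide reductase, was at 3.29 on array 5 and 3.40 to 3.41 elsewhere. PRS2, of the PRPP synthetases, was at 0.43 on array 4 and 0.51 to 0.53 elsewhere. The 4 values fell on 4 different arrays, and no cause was tested.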

How the results depend on the processing

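The median level of the 39 genes kept its sign under all 17 alternatives (0.14 to 2.37, and 1.90 to 1.91 with each array left out), while none of the 10 class differences and 12 of the 18 paralogue pairs did. Loess sets the typical ratio to 0 at each brightness by construction, and the cause of a change of sign was not tested for any setting, loess included. With loess, the class differences that turned were purine minus pyrimidine (0.25), IMP dehydrogenase (0.0301), ribonucleotide reductase (0.074) and PRPP synthetase (0.18), and pyrimidine minus ribonucleotide reductase (-0.18) and PRPP synthetase (-0.067). With processed signals they were purine minus pyrimidine (0.28), pyrimidine minus ribonucleotide reductase (-0.50) and PRPP synthetase (-0.48), and IMP dehydrogenase minus ribonucleotide reductase (-0.035) and PRPP synthetase (-0.011). Pyrimidine minus IMP dehydrogenase turned with RNA alone (0.089). Pyrimidine minus ribonucleotide reductase, near 0 as reported, also turned with normexp (-0.67), the deposited table (-0.00077), session 1 alone (-0.058) and with array 3, 4 or 5 left out (all leave-one-out values -0.032 to 0.045). Among alternatives chosen after seeing the data, class means in place of medians turned pyrimidine (-0.47), IMP dehydrogenase (-0.23) and ribonucleotide reductase (-0.62) minus PRPP synthetase, and leaving RNR3 and IMD2 out turned pyrimidine minus ribonucleotide reductase (-0.032), while leaving ADE3 and GUA1 out turned none.

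Paralogue pairs that turned with loess were IMD4 minus IMD3 (-0.23), URA5 minus URA10 (-1.49), PRS1 minus PRS3 (-0.73), PRS4 (-0.37) and PRS5 (-0.029), and PRS5 minus PRS4 (-0.34). With processed signals they were IMD4 minus IMD3 (-0.23), URA5 minus URA10 (-0.18), PRS1 minus PRS3 (-0.26) and PRS5 minus PRS4 (-0.26). Single genes changed side with loess in ADE3 (-1.04), ADE6 (-0.68), URA1 (-0.12), URA2 (-0.019), URA5 (-0.76), URA6 (-0.48), URA10 (0.74), RNR2 (-0.077), PRS1 (-0.13), PRS2 (-0.42) and PRS5 (-0.10), with processed signals in ADE3 (-0.56), ADE6 (-0.19), URA5 (-0.20), URA6 (-0.16) and PRS2 (-0.23), and with RNA alone in ADE12 (-0.15), URA8 (0.22) and IMD2 (0.41). The session count rose from 0 to 11 with the slide as a random block and to 11, in part other genes, with well-above-background spots alone. It was 0 under the other 14 alternatives, each array left out included. No paired analysis was possible because all arrays form 1 group, so no replicate number is shared between groups. Differences between genes were taken within each array.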
